A study of Mus musculus with 3 samples.

Results

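The genes that mark regulatory T cells, *Foxp3*, *Ctla4*, *Ikzf2*, *Tnfrsf4* and *Tnfrsf18*, were read in single cells of cultured mouse thymus. They were picked by symbol and are 5 of the 32285 genes in the expression table. Their values are raw counts of unique molecular identifiers (UMIs, 1 per captured RNA molecule), read in thymocytes with a rearranged T-cell receptor β chain (TRB) and in innate lymphoid cells. All 5 were detected among the 8392 cells kept. *Foxp3* was by far the rarest, with 57 UMIs in 51 cells, of which 4 cells held 2 or more. *Tnfrsf4* had 411 UMIs in 217 cells and *Ctla4* had 1147 UMIs in 665 cells. *Tnfrsf18* had 3345 UMIs in 1578 cells and *Ikzf2* had 6551 UMIs in 2785 cells. On the mouse assembly GRCm38.p6, *Foxp3* lies on chromosome X, from 7579676 to 7595243. *Ctla4* (60909025 to 60915832) and *Ikzf2* (69531207 to 69687351) both lie on chromosome 1. *Tnfrsf4* (156013595 to 156016613) and *Tnfrsf18* (156026322 to 156028894) are neighbours on chromosome 4, with 9708 bases between them.

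Regulatory T cells restrain immune responses against the body's own tissues, and many of them arise in the thymus from CD4 thymocytes whose receptor binds self peptide strongly. Precursors there are known to raise receptors of the tumour necrosis factor (TNF) receptor family, OX40 (*Tnfrsf4*) and GITR (*Tnfrsf18*), and the interleukin 2 receptor α chain (*Il2ra*), before or together with *Foxp3*, the transcription factor that fixes the fate. *Ikzf2* encodes Helios, an Ikaros family transcription factor of thymus-derived regulatory T cells, and *Ctla4* encodes an inhibitory receptor that binds CD80 and CD86. Apart from *Foxp3*, these genes are also known from other lymphocytes: *Ctla4* and the TNF receptors from strongly stimulated T cells, Helios from natural killer (NK) cells and unconventional T cells, and GITR from innate lymphoid cells of type 2 (ILC2).

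The cells came from 1 droplet lane, with libraries for gene expression, T-cell receptors and pool hashtags. It held 2 pools of wild-type mouse cultures, labelled as having had no treatment and taken on culture day 13. The FTOC pool (fetal thymic organ culture) came from intact fetal thymic lobes. The ORFTOC pool came from reaggregates, in which thymic epithelial cells (TECs) grown as organoids were combined with fetal thymus cells depleted of EpCAM-positive cells and with mouse embryonic fibroblasts. The mice were C57BL/6J, and the strain of the fibroblasts is not given in the sources used here. Both pools were cultured in a medium with the growth factor FGF7 and, at first, the kinase inhibitor Thiazovivin. Each pool mixed 2 cultures under 1 hashtag and so was 1 sample, and no test between pools was possible. Values are UMIs per 1000000 UMIs of a cell group (CPM) or shares of cells with a UMI. All intervals are 95% intervals for counting error only. CPM is not scaled to gene length, so that levels are compared between cell groups and not between genes.

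The 8392 cells comprised 4249 ORFTOC and 4143 FTOC cells. A cell counted as TRB positive with exactly 1 productive TRB chain in the receptor library, whose filtered list held 4649 barcodes, 3919 of them among the kept cells. TRB-positive thymocytes numbered 3209 (1280 ORFTOC, 1929 FTOC), and *Cd3e*, which encodes an invariant chain of the receptor complex, was detected in 92.3% of them. They comprised 723 cycling cells, 1651 CD4 CD8 double-positive (DP) cells, 376 cells in clusters led by genes of positive selection (selected cells), and 459 cells in mature single-positive-like (mature SP) clusters. Cells with a TRB chain in other clusters were not counted among them, such as 109 NK-like cells and 196 cells of an unnamed cluster led by *Ly6c2* and *Klrd1*. The mature SP clusters were led by *Igfbp4*, *Ms4a4b*, *Ccr7*, *S1pr1* and *Klf2*. The cycling cells included a cluster of 120 TRB-positive cells with *Xcl1*, *Ly6c2*, *Nkg7* and *Klrd1*, genes of cytotoxic lymphocytes, among its leading genes. Levels of cycling cells sum over this cluster and the other cycling clusters. The median depth was 9554 UMIs per cycling cell, 1663 per DP cell, 1810.5 per selected cell and 6494 per mature SP cell, so shares of cells with a UMI are not comparable between these classes at face value, and shares thinned to 1000 UMIs per cell are given beside them. In DP cells the median was close between pools (1678 in ORFTOC, 1647 in FTOC).

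Innate lymphoid cells numbered 1039, of which 239 were ILC2-like (221 ORFTOC, 18 FTOC), 560 ILC3-like (444 ORFTOC, 116 FTOC) and 240 NK-like without a TRB chain (125 ORFTOC, 115 FTOC). The ILC2-like cells fitted their label, with *Gata3* in 91.2%, *Rora* in 82.0% and *Il1rl1* in 44.4% of cells, and so did the ILC3-like cells, with *Il23r* in 45.0%. The NK-like cells fitted theirs less well: *Cd3e* was detected in 75.0%, the γδ T-cell gene *Trdc* in 55.4% and the NK receptor gene *Ncr1* in 14.6% of them. Values for innate cells are therefore given with and without the NK-like cells.

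*Foxp3* was scarce in TRB-positive thymocytes, and its highest measured level among their classes was in mature SP cells. Of the 3209 cells, 18 held a UMI (0.561%, interval 0.333 to 0.885). In mature SP cells 12 UMIs were found in 8 of 459 cells (1.74%, 0.755 to 3.41), a level of 3.49 CPM (1.80 to 6.09). In cycling cells the level was 0.609 CPM, from 5 cells with 1 UMI each, and in DP cells 1.66 CPM (0.539 to 3.87), again from 5 cells with 1 UMI each (0.303%). No selected cell of 376 held a UMI, which allows a share of up to 0.798% (3 cells of 376, the limit set on every count of 0 here, beside a Clopper-Pearson limit of 0.976%). The Poisson limit on the level of selected cells, 4.78 CPM, lay above the mature SP level. Epithelial cells, which should lack the gene, gave the background: 14 of 2182 cells held 1 UMI each (0.642%, 0.351 to 1.07) at a median depth of 12740 UMIs, a level of 0.473 CPM (0.259 to 0.794). The level of mature SP cells had an interval wholly above that of epithelial cells, whereas the intervals of their shares overlapped. For DP and cycling cells the intervals of both level and share overlapped those of epithelial cells. The DP share was read at a far lower depth. Thinned to 1000 UMIs, *Foxp3* was left in 3 mature SP cells (0.654%, 0.135 to 1.90), 2 DP cells (0.126%, 0.0152 to 0.453) and 1 epithelial cell (0.0458%, 0.00116 to 0.255). These intervals overlapped, and so did that of cycling cells (1 cell, 0.138%, 0.0035 to 0.768). Overlap of separate intervals does not show that shares are alike. Whether the shares of mature SP, DP and cycling cells differed from background at this depth was not tested. The thinning was a single random draw, and each share rested on 1 to 3 cells.

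Within mature SP cells *Foxp3* fell on the CD4 side. Cells with UMIs of *Cd4* and none of *Cd8a* or *Cd8b1* numbered 109 (CD4 side), cells with the opposite pattern 202 (CD8 side), and 126 cells had neither coreceptor. On the CD4 side 5 of 109 cells held *Foxp3* (4.59%, 1.51 to 10.4), with 7 UMIs and 8.80 CPM (3.54 to 18.1). On the CD8 side 0 of 202 cells did, which allows up to 1.49% by the same limit and 1.81% by Clopper-Pearson, at a higher median depth (7335.5 UMIs against 6481). The level on the CD4 side was 4.79-fold higher with the CD8 side set to the floor of 3 UMIs over the group. The interval of the log2 ratio had a lower limit of 1.57. The remaining 3 cells, with 5 UMIs, had neither coreceptor detected, and none of the 22 cells with both coreceptors held *Foxp3*.

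Both pools held *Foxp3*-positive mature SP cells, 4 of 285 cells in ORFTOC (1.40%, 0.384 to 3.55) and 4 of 174 in FTOC (2.30%, 0.630 to 5.78). The shares overlapped widely, and within each pool alone the interval also took in the epithelial share of 0.642%. All 4 ORFTOC cells held a single UMI. The ORFTOC cells had 4 UMIs in all (1.74 CPM) and the FTOC cells 8 UMIs (6.98 CPM), a log2 ratio of ORFTOC over FTOC of −2.004 (−4.19 to −0.10). This ratio rested on 2 FTOC cells with 3 UMIs each, the only TRB-positive mature SP cells with more than 1.

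The 8 *Foxp3*-positive mature SP cells carried 8 different TRB chains. Their junctions are shown because a shared one would have made them kin, or 1 cell read more than once. The sequences were read from the receptor contigs, 5′ to 3′ along the coding strand, and run from the codon of the conserved cysteine to that of the conserved phenylalanine, both in capitals.
Mature SP cell 1 (FTOC, TRBV1, TRBJ1-3): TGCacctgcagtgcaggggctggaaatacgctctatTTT
Mature SP cell 2 (FTOC, TRBV2, TRBJ1-5): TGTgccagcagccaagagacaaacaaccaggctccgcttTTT
Mature SP cell 3 (FTOC, TRBV3, TRBJ2-7): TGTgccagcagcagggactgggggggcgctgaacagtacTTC
Mature SP cell 4 (FTOC, TRBV20, TRBJ1-5): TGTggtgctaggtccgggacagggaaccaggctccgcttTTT
Mature SP cell 5 (ORFTOC, TRBV1, TRBJ2-7): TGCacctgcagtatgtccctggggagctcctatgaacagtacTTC
Mature SP cell 6 (ORFTOC, TRBV13-1, TRBJ2-7): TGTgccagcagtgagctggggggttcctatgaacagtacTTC
Mature SP cell 7 (ORFTOC, TRBV3, TRBJ1-2): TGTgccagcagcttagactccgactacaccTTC
Mature SP cell 8 (ORFTOC, TRBV13-3, TRBJ1-1): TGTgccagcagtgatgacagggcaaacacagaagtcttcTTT

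The junctions differed in length, from 33 to 45 bases, and 6 V genes were used. Cells 1 and 5 shared TRBV1, and cells 3 and 7 shared TRBV3, each time across pools and with a different J gene and junction. The chain of cell 7 was found in 2 cells of its pool, and that of cell 8 rested on 1 UMI. Each of the 8 cells also had 1 productive α chain (TRA).

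Read cell by cell, the other 4 genes were present in patches. Cell 1 held 3 UMIs of *Foxp3*, 3 of *Ikzf2*, 1 of *Ctla4* and 1 of *Tnfrsf18*. Cell 2 held 3 of *Foxp3*, 2 of *Ikzf2* and 4 of *Tnfrsf4*. The other 6 held a single *Foxp3* UMI: cell 8 had 3 UMIs of *Tnfrsf18* and 1 of *Tnfrsf4*, cell 7 had 2 of *Tnfrsf18*, cell 6 had 1 of *Tnfrsf4*, cell 5 had 1 of *Ctla4*, cell 3 had 1 of *Tnfrsf18*, and cell 4 had none of the other 4 genes. None of the 8 held all 5 genes. *Cd4* was detected in 5 of the 8 cells, and neither *Cd8a*, *Cd8b1* nor *Il2ra* in any. By contrast, the 10 *Foxp3*-positive cycling and DP cells each held 1 UMI of *Foxp3* beside 4 to 24 UMIs of the *Cd8* genes.

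**Figure D1:**
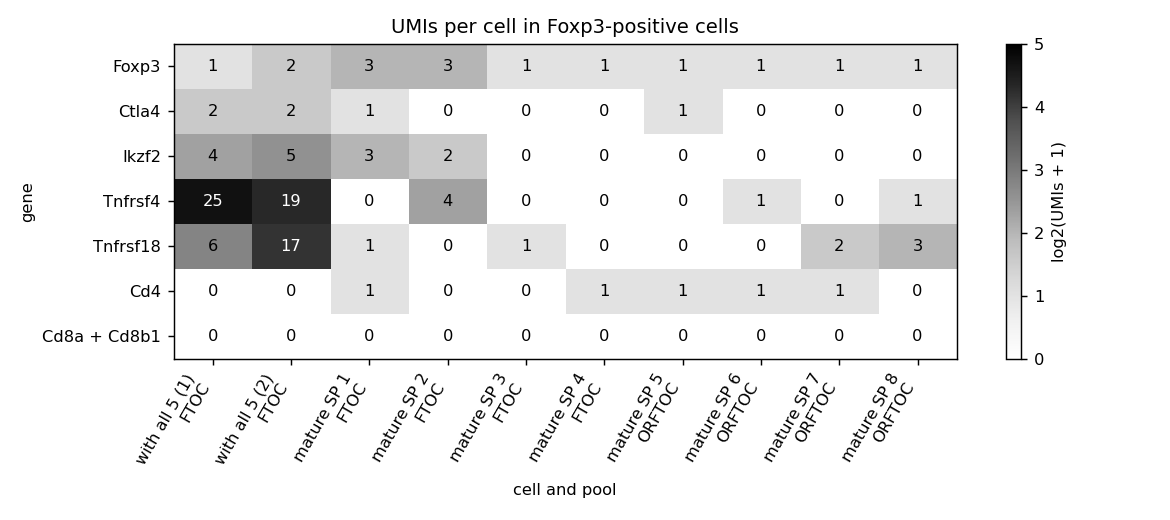
UMIs (numbers in the cells of the grid) of the 5 genes, of *Cd4* and of *Cd8a* plus *Cd8b1* in 10 cells; colour is log2(UMIs + 1). Genes are rows and cells are columns. The 2 left columns are the FTOC cells that held all 5 genes, with 25 and 19 UMIs of *Tnfrsf4*. The 8 columns to their right are the TRB-positive mature SP cells with *Foxp3*, in which *Cd8* was 0 throughout.

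Across all 8392 cells, 2 held a UMI of each of the 5 genes. They were looked for after the values had been seen, lie outside the mature SP class as defined above, and both belonged to the FTOC pool. They also had the highest counts of *Tnfrsf4* of any cell, 25 and 19 UMIs, and the next cells had 12, 10 and 10. The first lay in a mature SP-like cluster with 6257 UMIs in all: 1 of *Foxp3*, 2 of *Ctla4*, 4 of *Ikzf2*, 25 of *Tnfrsf4* and 6 of *Tnfrsf18*. It had no chain in the filtered receptor list, but the unfiltered list held a productive TRAV6N-6 TRAJ17 chain with 9 UMIs and an incomplete TRB contig with 17 UMIs under its barcode. Of 20 further genes known from regulatory T cells it held 7, with 9 UMIs, among them *Icos*, *Capg*, *Gpr83*, *Lrrc32* and *Tnfrsf9*.

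The second cell had 7489 UMIs: 2 of *Foxp3*, 2 of *Ctla4*, 5 of *Ikzf2*, 19 of *Tnfrsf4* and 17 of *Tnfrsf18*. It fell in an unnamed cluster led by *Ly6c2*, *Klrd1*, *Nkg7* and *Plac8*, genes of cytotoxic lymphocytes. Of the 20 further genes it held 10, with 31 UMIs, including 14 of *Tnfrsf9*, 4 of *Il2ra*, 4 of *Izumo1r* (folate receptor 4) and 1 of *Ikzf4* (Eos, a relative of Helios). Its TRB chain, shown because it separates this cell from the 8 above, had 18 UMIs.
Second cell with all 5 genes (FTOC, TRBV12-2, TRBJ1-4): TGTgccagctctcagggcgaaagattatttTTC

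Neither cell held a UMI of the epithelial, mesenchymal, macrophage, B cell or dendritic cell markers. A further 13 cells held 4 of the 5 genes, and in 12 of these the missing gene was *Foxp3*. Among TRB-positive mature SP cells, 9 held 4 genes and 25 held 3. No innate lymphoid cell of 1039 held 4 or 5, which allows up to 0.289%.

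*Ikzf2*, the other transcription factor, peaked in selected cells. Whether *Foxp3* peaked later is not shown, since its limit in selected cells lay above its mature SP level. Its level was 106.6 CPM in cycling cells, 61.8 CPM (53.2 to 71.3) in DP cells, 303 CPM (265 to 344) in selected cells, and 159 CPM (146 to 173) once mature SP. Within cycling cells it was at 172.6 CPM in the cluster with cytotoxic genes and at 85.1 and 93.4 in the others. The log2 ratio was 2.29 (2.01 to 2.58) for selected over DP cells and −0.93 (−1.16 to −0.70) for mature SP over selected cells. The shares of cells with a UMI after thinning gave the same order, 4.89% of DP, 20.4% of selected and 12.9% of mature SP cells, although the unthinned share was highest in mature SP cells (44.4%, against 29.8% of selected and 8.84% of DP cells). The pools lay close together: 281 CPM in ORFTOC and 317 in FTOC among selected cells, 153 and 171 among mature SP.

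*Ctla4*, the inhibitory receptor gene, ran differently along the TRB-positive classes in the 2 pools. Summed over both it was at 42.9 CPM in cycling cells, 44.2 (37.0 to 52.3) in DP cells, 35.0 among selected and 43.6 (36.9 to 51.1) among mature SP cells. Within cycling cells it was at 17.5 CPM in the cluster with cytotoxic genes and at 40.6 and 71.5 in the others. In DP cells it was lower in ORFTOC, at 17.1 CPM (9.55 to 28.1) against 55.3 (45.8 to 66.3) in FTOC, a log2 ratio of −1.70 (−2.58 to −0.92). A *Ctla4* UMI was found in 2.76% of ORFTOC and 7.80% of FTOC DP cells, and after thinning in 1.79% and 4.10%. Mature SP cells showed the same direction, with 30.9 CPM (24.1 to 39.0) in ORFTOC and 69.0 (54.6 to 85.9) in FTOC, a log2 ratio of −1.16 (−1.64 to −0.68). In cycling cells the pools were alike within counting error (42.2 and 44.0 CPM, log2 ratio −0.06, −0.38 to 0.26), and in selected cells the interval was wide (29.8 and 38.3 CPM, log2 ratio −0.36, −1.70 to 0.87). Within ORFTOC the level was lower in DP than in cycling cells (log2 ratio −1.31, −2.17 to −0.55), and within FTOC it was higher in mature SP than in selected cells (0.85, 0.10 to 1.68), so that neither pool was level.

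*Tnfrsf4* (OX40) was scarce until the later TRB-positive classes. DP cells held 2 UMIs in 1651 cells (0.664 CPM) and cycling cells were at 2.68 CPM, whereas mature SP cells reached 31.1 CPM (25.5 to 37.6), with a UMI in 14.4% of cells. After thinning the share was 1.31% (0.481 to 2.82), close to the 1.10% of selected cells. Of the 22 UMIs of cycling cells, 17 lay in the cluster with cytotoxic genes (9.28 CPM, against 0.681 and 1.02 in the other cycling clusters). In mature SP cells the pools overlapped (28.3 CPM in ORFTOC, 36.7 in FTOC, log2 ratio −0.37, −0.96 to 0.22). In selected cells they did not: 6 of 132 ORFTOC cells held 17 UMIs (56.3 CPM), up to 8 in 1 cell, and 0 of 244 FTOC cells held any, which allows up to 1.23%. The ORFTOC level there was 8.82-fold higher with FTOC set to the floor of 3 UMIs, and the interval of the log2 ratio had a lower limit of 2.68.

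*Tnfrsf18* (GITR) was likewise highest in mature SP cells. Its level was 10.8 CPM in cycling, 14.9 in DP, 16.8 (9.0 to 28.8) in selected and 56.3 (48.7 to 64.9) in mature SP cells, where 26.4% of cells held a UMI (5.01% after thinning, against 0.826% of selected cells). Of the 89 UMIs of cycling cells, 65 lay in the cluster with cytotoxic genes (35.5 CPM, against 3.86 and 3.55 in the other cycling clusters). Mature SP over selected cells gave a log2 ratio of 1.74 (0.93 to 2.68). Mature SP cells of both pools were alike within counting error (55.3 and 58.5 CPM, log2 ratio −0.08, −0.52 to 0.37), whereas in DP cells the level was lower in ORFTOC (5.69 CPM from 5 UMIs, against 18.8 from 40 UMIs, log2 ratio −1.72, −3.42 to −0.38). In DP cells *Ctla4* and *Tnfrsf18* thus lay on the same side.

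**Figure D2:**
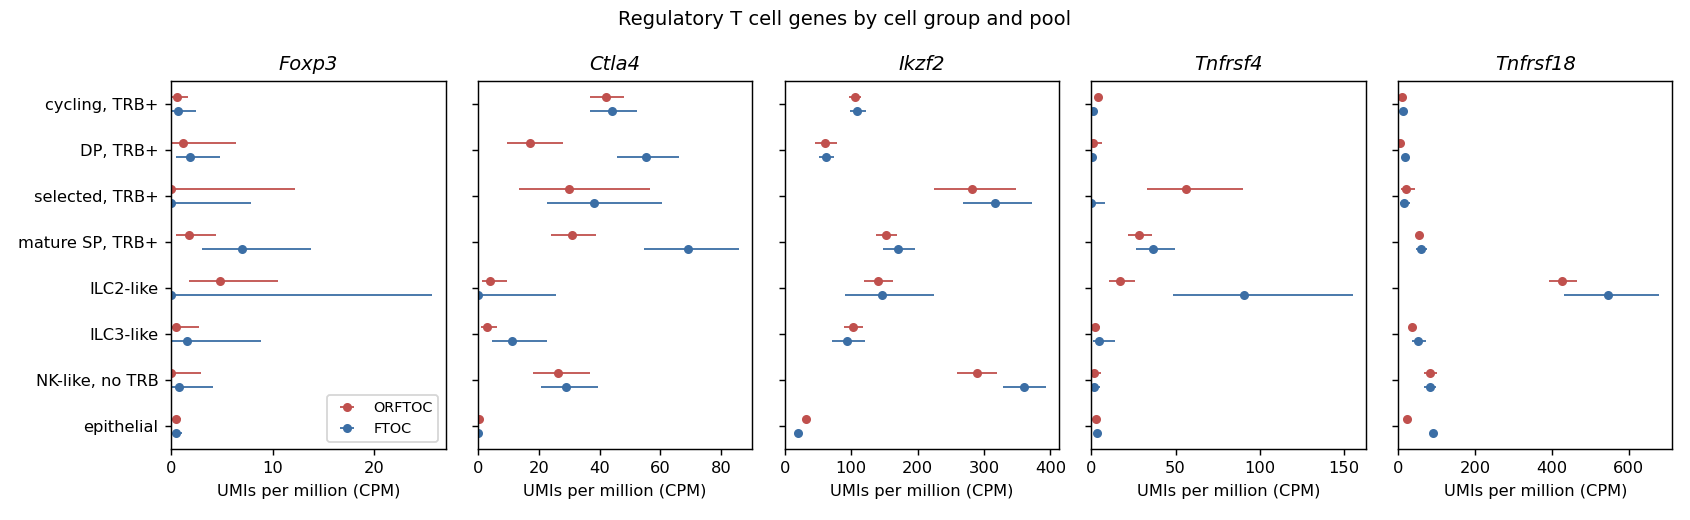
Level of each of the 5 genes (CPM, 1 panel a gene, x axes starting at 0) in the 4 classes of TRB-positive thymocytes, the 3 classes of innate lymphoid cells and epithelial cells, by pool, with bars for the 95% Poisson interval. *Ikzf2* peaks in selected thymocytes (281 CPM in ORFTOC, 317 in FTOC) and NK-like cells, *Ctla4* is lower in ORFTOC in DP and mature SP cells, and *Tnfrsf18* is highest in ILC2-like cells (427 and 545 CPM).

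From DP to mature SP cells, 3 of the 4 members that reached 10 CPM in either class were more than 2-fold higher (*Ikzf2*, *Tnfrsf4* and *Tnfrsf18*), against 8.55% of the 8488 genes that reached that level. *Ctla4* was not, and *Foxp3* stayed below 10 CPM. Of the 20 further regulatory T cell genes, 12 had at least 3 UMIs in both classes. The interval of their ratio lay above 0 for 6 and below 0 for 2, with a median log2 ratio of 0.85. Over the 10688 genes with as many UMIs the median was −0.61, with 14.6% above 0 and 51.9% below.

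The coreceptor split separated the genes within mature SP cells. Between the CD4 and the CD8 side, 3 of the 4 members that reached 10 CPM differed more than 2-fold, against 9.46% of 7583 genes, and all 3 were higher on the CD4 side. The sharpest was *Tnfrsf4*, at 77.9 CPM (59.8 to 99.9) on the CD4 side, where 38 of 109 cells held it (34.9%, 26.0 to 44.6), against 1.22 CPM on the CD8 side, from 2 UMIs in 2 of 202 cells. The log2 ratio was 5.99 (4.08 to 9.07), and the CD4 side was similar between pools (80.8 CPM in ORFTOC, 73.2 in FTOC).

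*Ctla4* was at 71.7 CPM (54.3 to 92.8) on the CD4 side and 25.1 (18 to 34.0) on the CD8 side, a log2 ratio of 1.51 (0.91 to 2.13). *Tnfrsf18* was at 74.2 CPM (56.5 to 95.7) and 31.2 (23.2 to 41.0), a log2 ratio of 1.25 (0.68 to 1.82). *Ikzf2* went the other way, with 114 CPM (92.1 to 140) on the CD4 side and 187 (167 to 209) on the CD8 side, a log2 ratio of −0.71 (−1.06 to −0.37). Helios was thus the only one of the 5 whose gene was higher on the CD8 side. The split by coreceptor matched the lineage regulators: *Zbtb7b* (ThPOK, of the CD4 lineage) had 22 UMIs on the CD4 side and 1 on the CD8 side, and *Runx3* (of the CD8 lineage) was at 76.7 and 146.8 CPM.

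The lower *Ctla4* of ORFTOC mature SP cells was present on both sides. It was at 50.5 CPM in ORFTOC and 106.5 in FTOC on the CD4 side (log2 ratio −1.08, −1.89 to −0.28), and at 17.3 and 43.7 CPM on the CD8 side (−1.33, −2.29 to −0.38). In cells with neither coreceptor it was at 32.0 and 82.7 CPM (−1.37, −2.35 to −0.43). The difference between pools was of similar size in these 3 groups. The 22 cells with both coreceptors went the other way, with 9 UMIs in 4 of 13 ORFTOC cells and 0 in 9 FTOC cells, and the pools held unlike numbers of them (63 ORFTOC and 46 FTOC cells on the CD4 side, 137 and 65 on the CD8 side).

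**Figure D3:**
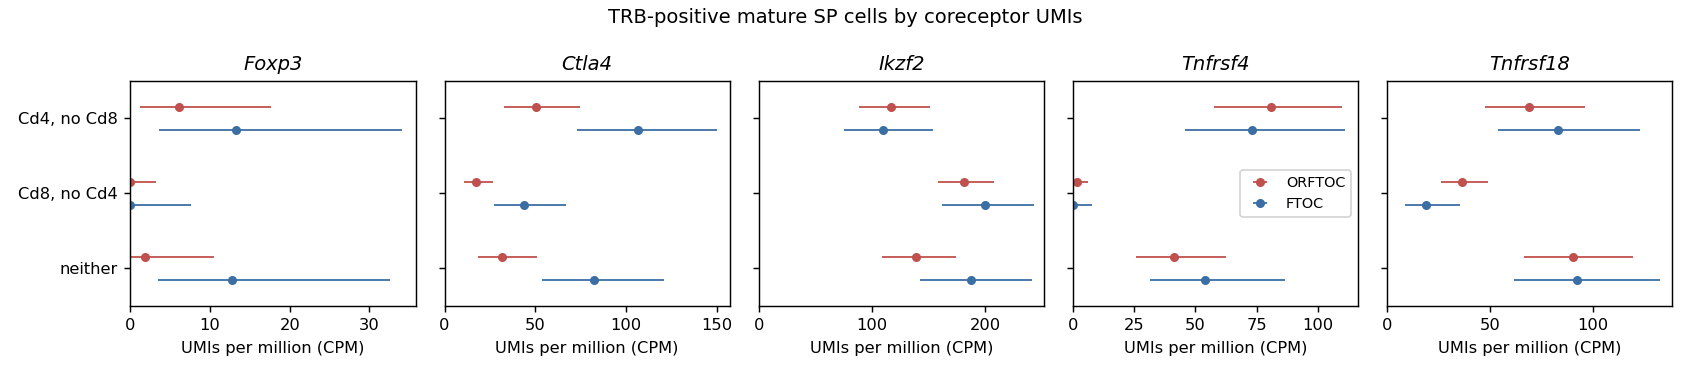
Level (CPM, x axes starting at 0) of the 5 genes in TRB-positive mature SP cells on the CD4 side, on the CD8 side and with neither coreceptor detected, by pool, with 95% Poisson intervals. *Tnfrsf4* is near 0 on the CD8 side in both pools and at 80.8 (ORFTOC) and 73.2 CPM (FTOC) on the CD4 side, and *Ikzf2* is higher on the CD8 side.

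Further regulatory T cell genes leaned to the CD4 side. Of the 20, 14 had at least 3 UMIs on each side, the interval lay above 0 for 7 and below 0 for 1, and the median log2 ratio was 0.71, beside 0.02 over 8982 genes (6.48% above 0, 7.58% below). *Izumo1r* was at 134.5 against 24.5 CPM (log2 ratio 2.46, 1.92 to 3.02), *Il2ra* at 17.6 against 6.12 (1.52, 0.25 to 2.86), *Icos*, a costimulatory receptor gene, at 41.5 against 20.8 (1.00, 0.26 to 1.73) and *Tnfrsf9* (4-1BB) at 27.7 against 14.7 (0.91, 0.01 to 1.81). The 1 below 0 was *Itgae* (CD103, an integrin that CD8 thymocytes are known to carry), at 5.03 against 82.0 CPM. Of 10 genes of strong receptor signalling, a list that also holds *Tnfrsf9*, 5 of the 8 measured lay above 0 and none below, among them *Tnfrsf9* itself, *Nr4a1* (144.6 against 63.6 CPM) and *Cd5* (255 against 119).

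Co-detection with *Foxp3* was read over selected and mature SP cells, 8 with *Foxp3* (median 4923 UMIs) and 827 without (median 3807). The contrast also crossed classes, since all 8 were mature SP cells and the 827 took in the 376 selected cells. *Tnfrsf4* was at 161.5 CPM with *Foxp3* and 28.2 CPM without, a log2 ratio of 2.52 (1.04 to 3.68), in 3 of 8 cells against 8.34%. *Tnfrsf18* was at 188 and 47.9 CPM, a log2 ratio of 1.98 (0.64 to 3.05), in 4 of 8 cells against 15.7%. Over all mature SP cells the shares were 14.4% for *Tnfrsf4* and 26.4% for *Tnfrsf18*. These were the 2 of the 4 other members that were more than 2-fold higher, while 29.5% of the 2835 genes detected in at least 20% of *Foxp3*-positive cells also were. Among these genes *Tnfrsf4* took rank 107, *Tnfrsf18* rank 241, *Ctla4* rank 893.5 and *Ikzf2* rank 2436.

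Without its richest cell, the interval of either ratio included 0. *Tnfrsf4* rested on 6 UMIs, and without the *Foxp3*-positive cell with most of them the log2 ratio was 1.07 (−1.99 to 2.96). *Tnfrsf18* rested on 7 UMIs and came to 1.23 (−0.66 to 2.61) in the same way. By pool, *Tnfrsf4* was at 111.7 against 31.0 CPM in ORFTOC and 207.9 against 23.8 in FTOC, and *Tnfrsf18* at 279 against 49.6 and at 103.9 against 45.1, all higher with *Foxp3*. Of these, *Tnfrsf4* in ORFTOC (2 UMIs, log2 ratio 1.85, −1.22 to 3.75) and *Tnfrsf18* in FTOC (2 UMIs, 1.20, −1.87 to 3.11) had intervals that included 0.

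*Ctla4* and *Ikzf2* had intervals that included 0. *Ctla4* was at 53.8 CPM (2 UMIs) against 41.9, a log2 ratio of 0.36 (−2.69 to 2.24), and *Ikzf2* at 134.6 CPM (5 UMIs) against 185.7, a log2 ratio of −0.46 (−2.09 to 0.76). Of the coreceptors, *Cd8a* was detected in 0 of 8 cells against 60.9%. *Cd4* was detected in 5 of 8 cells (24.5% to 91.5%) against 29.99%, a share within that interval. *Il2ra* was found in 0 of 8 cells against 5.93%, where 0 of 8 cells allows up to 37.5%. Of the 20 further regulatory T cell genes, 8 had a UMI in the *Foxp3*-positive cells, at a summed level of 376.9 CPM against 462.2 without *Foxp3*. Single cells held 0 to 3 of them (median 1), and *Foxp3*-negative mature SP cells, at a median of 6583 UMIs, held up to 9 (median 2). The 15 highest-ranked genes, led by *Arhgef10* and *Rgs12*, each rested on 2 or 3 UMIs.

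Of markers of other cells, the *Foxp3*-positive cells held 5 UMIs from 3 of 6 mesenchymal markers (134.6 CPM, against 23.9 without *Foxp3*), 2 UMIs from 1 of 8 macrophage markers (53.8 against 67.0 CPM), and none of 6 epithelial or 6 B cell markers. The part of these UMIs in the ratios above was not tested.

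**Figure D4:**
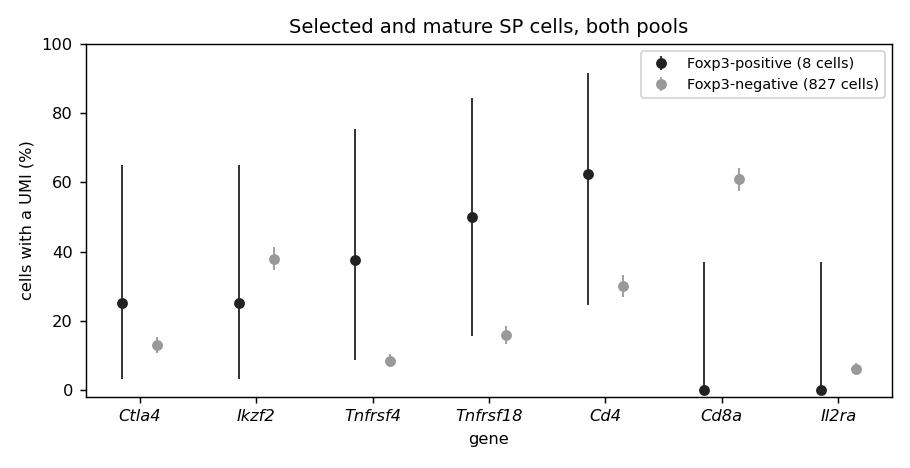
Share of selected and mature SP TRB-positive cells with a UMI (%, y axis) of the 4 other genes, *Cd4*, *Cd8a* and *Il2ra*, in the 8 cells with *Foxp3* and the 827 without, with 95% Clopper-Pearson intervals. The intervals of the 8 cells are wide, and *Cd8a* (0 of 8 against 60.9%) shows the largest gap.

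Among mature SP cells the other members were partly found in the same cells without *Foxp3*. *Tnfrsf18* was detected in 39.4% (27.6 to 52.2) of the 66 cells with *Tnfrsf4* and in 24.2% (20.02 to 28.7) of the 393 without, at like depths (medians of 6333.5 and 6535 UMIs), and in the same direction in both pools (38.5% and 26.0% in ORFTOC, 40.7% and 21.1% in FTOC). *Tnfrsf18* was also more frequent with *Ctla4* (39.1%, 28.8 to 50.1) than without it (23.4%, 19.2 to 28.0). *Il2ra* was found in 13.6% (6.43 to 24.3) of cells with *Tnfrsf4* and 3.31% (1.77 to 5.59) without. *Ikzf2* was not more frequent with *Tnfrsf4* (42.4% against 44.8%).

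Cells with *Ctla4*, *Tnfrsf4* and *Tnfrsf18* together, a combination singled out after the values had been seen, numbered 10 of 459 mature SP cells (2.18%, 1.05 to 3.97), 5 in each pool. None was found among TRB-positive cycling, DP or selected cells or among innate cells. Over all 8392 cells 16 held the 3 genes. They also included 1 macrophage-like cell, 1 epithelial cell and both cells with all 5 genes, the second of them a TRB-positive cell of the *Klrd1* cluster. None of the 10 mature SP cells held *Foxp3*, 8 held *Ikzf2* and 1 held *Il2ra*, and their 10 TRB chains were all distinct. On the CD4 side there were 5 (4.59%), on the CD8 side 0, and 5 had neither coreceptor. Of the further regulatory T cell genes, 10 had at least 3 UMIs in them and in the other mature SP cells. The intervals of *Izumo1r* (261 against 73.2 CPM, log2 ratio 1.83, 1.23 to 2.39) and *Gpr83* (63.0 against 19.2, 1.71, 0.34 to 2.84) lay above 0. This contrast also crossed coreceptor sides, since the other mature SP cells took in the whole CD8 side. Both genes were lower there than on the CD4 side (*Izumo1r* 24.5 against 134.5 CPM, *Gpr83* 4.28 against 46.5). The part of the coreceptor side in these ratios was not tested. The median log2 ratio over the 10 was 0.94, beside 0.16 over 4703 genes (282 above 0, 67 below).

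Between pools, none of the 4 members that reached 10 CPM differed more than 2-fold over all TRB-positive thymocytes, as 2.74% of 8064 genes did. *Ctla4* was at 36.2 CPM in ORFTOC and 51.4 in FTOC (log2 ratio −0.50, −0.73 to −0.28), *Ikzf2* at 119 in both (−0.00, −0.13 to 0.13) and *Tnfrsf18* at 21.5 and 22.9 (−0.09, −0.41 to 0.22). *Tnfrsf4* was at 11.8 and 6.80 CPM (0.79, 0.28 to 1.33), which came to 0.0094 when cells needed at least 1000 detected genes, a setting in which the second cell with all 5 genes counted as mature SP. *Foxp3* was detected in 0.625% of ORFTOC and 0.518% of FTOC cells, at unlike median depths of 3922.5 and 1921 UMIs. After thinning the order turned, with 0.160% (2 cells) and 0.212% (4 cells), and the levels were 0.923 and 2.07 CPM. The pools differed in makeup, with 471 of 1280 ORFTOC and 1180 of 1929 FTOC cells being DP, so the values within classes are given above.

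Innate lymphoid cells carried a different set of the genes, high in *Tnfrsf18* and low in *Ctla4*. Of the 3 members that reached 10 CPM, 2 differed more than 2-fold from TRB-positive thymocytes, against 26.0% of 8767 genes. The log2 ratio of innate over TRB-positive cells was 2.66 (2.48 to 2.84) for *Tnfrsf18*, −1.67 (−2.01 to −1.35) for *Ctla4* and 0.72 (0.62 to 0.82) for *Ikzf2*. For ILC2-like and ILC3-like cells alone it was 2.99 (2.80 to 3.18) for *Tnfrsf18*, −3.28 (−4.05 to −2.61) for *Ctla4* and −0.06 (−0.21 to 0.08) for *Ikzf2*, so that the higher *Ikzf2* rested on the NK-like cells. By pool, the *Tnfrsf18* ratio was 2.86 in ORFTOC and 2.19 in FTOC, and that of *Ctla4* was −1.91 and −1.24.

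ILC2-like cells stood out for *Tnfrsf18*, at 439 CPM (405 to 476), with a UMI in 73.6% of cells and in 36.1% after thinning. This was 19.9-fold higher than in TRB-positive thymocytes, with 427 CPM in ORFTOC and 545 in the 18 FTOC cells (log2 ratio −0.35, −0.70 to 0.01). ILC3-like cells were at 40.7 CPM (33.5 to 49.1) and NK-like cells at 82.1 (71.5 to 93.9). *Tnfrsf4* was at 24.5 CPM (17.0 to 34.3) in ILC2-like cells, with a UMI in 6.28% of them, at 2.59 in ILC3-like and at 1.54 in NK-like cells. Its level in the 18 FTOC ILC2-like cells (90.7 CPM, against 16.9 in ORFTOC) came from 13 UMIs in 4 cells, of which 1 cell held 10.

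*Ctla4* was nearly absent from ILC2-like (3.61 CPM, 1.17 to 8.42) and ILC3-like cells (4.81, 2.56 to 8.23) and was at 27.6 CPM (21.6 to 34.8) in NK-like cells. *Ikzf2* was at 141 CPM (122 to 162) in ILC2-like, 101 (89.1 to 113) in ILC3-like and 326 (304 to 348) in NK-like cells, where 85.0% of cells held it. The NK-like level was lower in ORFTOC (289 CPM) than in FTOC (360 CPM; log2 ratio −0.32, −0.52 to −0.12). It was thus as high as in selected thymocytes, whose interval it overlapped.

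*Foxp3* was also found in ILC2-like cells, with 6 UMIs in 5 of 239 cells (2.09%, 0.683 to 4.81) and 4.33 CPM (1.59 to 9.42). As in mature SP cells, the interval of the level lay wholly above that of epithelial cells (0.259 to 0.794 CPM), whereas the shares overlapped. The level of ILC2-like cells overlapped that of mature SP cells (3.49 CPM, 1.80 to 6.09), so a level above background was not particular to mature SP cells. All 5 were ORFTOC cells, while 0 of the 18 FTOC cells held a UMI, which allows up to 16.7%. Thinned to 1000 UMIs, 1 cell was left (0.420%, 0.0106 to 2.32), and the interval overlapped that of thinned epithelial cells. ILC3-like cells held 2 UMIs and NK-like cells 1.

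Across 18 clusters of cells, the genes whose levels ran closest to each member were listed as a description over 7945 genes. The clusters share 1 lane, and the points differ in depth. Among the nearest were *Prkch* (Pearson r of 0.87) and *Zfp36l2* (0.86) for *Ikzf2*, *Cluap1* (0.87) for *Ctla4*, the chemokine receptor gene *Ccr8* (0.90) for *Tnfrsf18*, and *Crybg1* (0.91) and *Ikzf4* (0.81) for *Tnfrsf4*. For *Foxp3* they were *Homer2* (0.69) and *Il13* (0.66), on few UMIs.

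Of the ligands, those of CTLA-4 had their highest levels among the groups read in antigen-presenting cells, with *Cd80* at 14.2 CPM and *Cd86* at 128 CPM in macrophages, and at 50.8 and 121 CPM in dendritic-like cells. Mature SP cells held *Cd86* at 16.9 CPM (11.3% of cells) and epithelial cells *Cd80* at 5.07 CPM. *Tnfsf4* (OX40 ligand) and *Tnfsf18* (GITR ligand) had at most 2 UMIs in any group read. *Il2*, the cytokine that regulatory T cells need and do not make, was at 130 CPM (111.6 to 150) in ILC2-like cells, where 41.8% of cells held it, and at 11.8 CPM in ILC3-like cells. *Il15*, whose product shares some but not all receptor chains with interleukin 2, was at 102 CPM in dendritic-like and 33.8 CPM in epithelial cells.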

How the data were processed

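Single cells from 1 lane were measured in 3 libraries (gene expression, T-cell receptor, hashtag). Per the submitters' processing notes, the authors aligned reads to mm10 with Cell Ranger 6.1.2 and analysed them with Seurat 4.2.0. The deposited gene expression and hashtag values are raw UMI counts, and the receptor lists hold contigs with UMI counts per chain. Antibody hashtags tell the pools apart, not the cultures within a pool.

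Cells were kept with at least 600 genes and 0.4% to 10% mitochondrial UMIs, the limits the study states. Of 705161 barcodes (103984163 UMIs), 10245 passed. Hashtags (HTODemux, quantile 0.99) left 8983 single cells, 590 doublets between pools and 672 negatives. A further 591 cells were removed as doublets within pools, by the share of known doublets among 50 nearest neighbours. Clusters came from SCTransform values with 18 principal components and resolution 0.4 (all cells) or 1 (immune cells). The 5 genes were taken out of the clustering features. Clustering ran in R 4.3.3 (Seurat 5.3.0, sctransform 0.4.2), all sums and intervals in Python 3.11.15 (pandas 2.3.3, scipy 1.17.1, numpy 2.4.6).

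Marker lists gave the names of clusters, by a rule whose limits were set after their leading genes had been seen. The members and all gene lists were chosen with earlier results of these data known. Levels are CPM of the summed UMIs of a group. Intervals are exact Poisson for levels, Clopper-Pearson for shares and conditional binomial for ratios. In ratios, a sum of 0 was set to 3 UMIs, and a sum of 1 or 2 was left as counted (*Ctla4* with *Foxp3*, *Tnfrsf4* on the CD8 side, *Tnfrsf4* without the richest cell). Fold calls over all genes set every sum under 3 to 3. Genes were named by role for the 5 members, as the 15 with the largest ratio for co-detection with *Foxp3*, and as the 5 nearest by correlation for each member. Genes of the further lists were named after their values were seen. Free RNA, in barcodes under 100 UMIs, held 1.31 CPM of *Foxp3*, 9.39 of *Ctla4*, 86.9 of *Ikzf2*, 2.40 of *Tnfrsf4* and 24.7 of *Tnfrsf18*. The ratio step with its interval was tested on group sums simulated as Poisson counts. Counts of single cells were not simulated, and the intervals of levels and shares were not tested. Some genes of these lists are not reported here.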

Additional observations from a re-analysis of the deposited data

How the results depend on the processing

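Of 188 recomputed values for 20 results, 158 moved by less than their counting interval, 28 moved further and 2 changed direction. No paired analysis was possible because each condition was 1 pool, and for the same reason no replicate could be left out. The share of cells with *Foxp3* depended on the count required and on depth. Over all TRB-positive cells 0.561% became 0.0623% with at least 2 UMIs and 0.191% after thinning to 1000 UMIs. The FTOC share of 0.518% became 0.104% and 0.212%, and the ORFTOC share of 0.625% became 0% and 0.160%. In mature SP cells 1.74% became 0.436% and 0.654%, with 0% in ORFTOC at 2 UMIs and 0.575% in FTOC after thinning.

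In the co-detection with *Foxp3*, sums under 3 UMIs were set to 3 throughout, which put the log2 ratio of *Ctla4* at 0.95. With at least 2 *Foxp3* UMIs per cell it was 2.95 for *Ctla4* (from 1 UMI set to 3), 1.55 for *Ikzf2* and 3.92 for *Tnfrsf4*. With at least 1000 genes per cell *Tnfrsf18* was at 3.14. At resolution 2 it was at 3.44 and *Tnfrsf4* at 4.39, and as a mean over single cells it was at 3.18. With all mature SP-like and *Ly6c2* *Klrd1* cells, with or without a TRB chain, a group chosen after seeing the data that takes in the cells with all 5 genes, the ratios were 2.51 (*Ctla4*), 0.92 (*Ikzf2*), 5.89 (*Tnfrsf4*) and 3.33 (*Tnfrsf18*).

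For ORFTOC over FTOC, means over single cells gave −0.86 for *Ctla4*, 0.20 for *Ikzf2* and 1.55 for *Tnfrsf4*, and *Tnfrsf4* was at 0.0094 with at least 1000 genes and 0.18 at resolution 2. For innate over TRB-positive cells, *Ctla4* was at −2.09 as a mean over single cells. With innate cells taken by a gate on genes in place of clusters, *Ctla4* was at −2.92, *Ikzf2* turned from 0.72 to −0.27 and *Tnfrsf4* from −0.51 to 0.0947. The cause was not tested for any of these. Results on *Foxp3* rest on single UMIs and are limited by depth.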

Other observations

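The members were also found outside the cells described so far, and some of these groups are given here. The *Ly6c2* and *Klrd1* cluster had *Ikzf2* at 239 CPM in 196 cells with a TRB chain and at 355 CPM in 252 cells without. *Tnfrsf18* was there at 54.1 and 58.2 CPM, and *Ctla4* at 23.5 and 27.2 CPM. NK-like cells with a TRB chain had *Ikzf2* at 287 CPM. γδ T cells without a TRB chain had more *Ctla4* than any TRB-positive class, at 103.9 CPM (84.7 to 126), again lower in ORFTOC (59.5 CPM) than in FTOC (129 CPM; log2 ratio −1.12, −1.88 to −0.41), and 0 of 146 of them held *Foxp3*. Dendritic-like cells had *Tnfrsf4* at 82.1 CPM (50.8 to 125), in 9 of 29 cells (31.0%). Epithelial cells had *Tnfrsf18* at 22.1 CPM (19.9 to 24.4) in ORFTOC and 91.8 CPM (86.5 to 97.3) in FTOC, a log2 ratio of −2.05 (−2.23 to −1.89), with a UMI in 18.6% and 42.8% of cells.

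Among 2518 barcodes with at least 600 genes that were left out as doublets, negatives or by the mitochondrial limits, 22 held *Foxp3* and 9 of these also had a TRB chain. None held all 5 genes, 3 held *Foxp3* with at least 3 of the others, and 2 held 2 or more *Foxp3* UMIs.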
